A study of Mus musculus with 15 samples.

Results

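Goblet cells make the mucus of the intestine, and 10 genes of these cells and of the secretory lineage that gives rise to them were described in mouse small intestinal organoids. The genes were taken by name, and all 10 of the 10 (of 43629 genes in the count table) were found and tested. They comprise the transcription factors Atoh1, Gfi1 and Spdef, and the goblet cell products Muc2, Tff3, Fcgbp, Agr2, Clca1, Zg16 and Spink4. No measured value was used to select them, but earlier results of these data were known at the time.

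RNA sequencing was performed on organoids from crypts of the proximal small intestine of mice of a mixed C57B6/129 strain, and 13 libraries entered 3 groups. WT held 5 libraries, of which 4 were APC flox/flox lines numbered 1, 2, 5 and 6, with the Apc gene intact, and 1 was a dox naive culture of the Rspo3 system. Apc held 4 libraries, lines 1, 2, 5 and 6 after deletion of Apc (Apc delta/delta). P-Rspo3 held 4 libraries (15d, 4d, M and F) with the Ptprk-Rspo3 fusion, an inversion made by doxycycline-inducible Cas9 that places Rspo3 under the control of Ptprk and was carried by bulk cultures rather than by a clone. WT was grown in ENR medium (EGF, Noggin and RSPO1) and both mutant groups in EN medium, without RSPO1. Genotype and medium therefore cannot be told apart in the comparisons with WT. P-Rspo3 came from the Rspo3 system, not from the flox lines that gave Apc and 4 of the WT libraries. Genotype and line of origin therefore cannot be told apart in Apc against P-Rspo3. In P-Rspo3 against WT, line of origin differed as well for all WT libraries but the naive culture. The labels name no age, and do not say which libraries come from separate animals, so p-values measure the spread between these libraries.

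In the crypt, a progenitor that escapes Notch signalling switches on Atoh1, the factor required for all secretory cells. Gfi1 acts downstream of Atoh1 and steers cells to the goblet and Paneth fates rather than the enteroendocrine fate, and Spdef drives the maturation of goblet and Paneth cells. Mature goblet cells store and release Muc2, the gel-forming mucin of intestinal mucus, together with proteins that bind, fold or process it. Apc restrains Wnt signalling, and R-spondins strengthen it through LGR receptors.

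The total count per library was 28902729 to 35528495. Rspo3 had 539 to 1079 counts in P-Rspo3, 7 to 57 in Apc and at most 1 in WT. Apc had 9265 to 10953 counts in Apc libraries and 4046 to 6810 in WT. Counts over the whole Apc gene do not check the removal of an exon. Epithelial markers were high in all groups (summed FPKM of 6 markers 1347 to 1563 in WT, 1556 to 1880 in Apc and 1278 to 1557 in P-Rspo3). The sum shows epithelial RNA but not that the groups were alike. Krt18 had a mean FPKM of 517 in Apc against 199 in WT (log2 fold change 1.11). Vil1 had 91.9 against 180 (log2 fold change -1.26). Epcam, Cdh1, Krt8 and Cdx2 changed by less (log2 fold changes -0.31 to 0.24). FPKM denotes fragments scaled to exon length and library size. Of 8 stromal markers, Col1a2, Col3a1 and Dcn had at most 3 counts in every library of every group. Vim alone of these 8 had a mean FPKM of at least 1, with 1070 to 16907 counts in Apc and 61 to 185 in WT and P-Rspo3. Of 6 immune markers, Cd3e and Cd79a had at most 3 counts in every library, but others were detected. Cd68 had a higher mean FPKM in Apc (6.24) than in WT (0.78) and P-Rspo3 (0.807). Itgam had a lower mean FPKM in Apc (0.299) than in WT (1.33), as did Lyz2 (0.19 against 0.492). Ptprc had at most 3 counts in every Apc library. The cause of these differences was not tested.

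The promoters of 6 of the 10 genes were matched in the RefSeq table (GRCm38.p6), and Tff3, Clca1, Zg16 and Spink4 had no entry. The 250 bases before the start site are shown for Muc2, Fcgbp, Spdef and Agr2, products and a regulator that differed in the size of their response, and for Atoh1, the head of the lineage. Capitals mark matches to the E-box CAGCTG, a core recognised by basic helix-loop-helix factors such as Atoh1, and to the TCF/LEF core CTTTGAT, both searched on both strands.
Muc2 (GRCm38.p6, plus strand, chr7:141690090-141690339): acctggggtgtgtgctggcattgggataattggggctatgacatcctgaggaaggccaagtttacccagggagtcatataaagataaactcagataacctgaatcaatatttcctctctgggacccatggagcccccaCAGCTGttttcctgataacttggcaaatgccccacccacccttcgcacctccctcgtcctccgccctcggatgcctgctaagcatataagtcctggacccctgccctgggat
Fcgbp (GRCm38.p6, plus strand, chr7:28070986-28071235): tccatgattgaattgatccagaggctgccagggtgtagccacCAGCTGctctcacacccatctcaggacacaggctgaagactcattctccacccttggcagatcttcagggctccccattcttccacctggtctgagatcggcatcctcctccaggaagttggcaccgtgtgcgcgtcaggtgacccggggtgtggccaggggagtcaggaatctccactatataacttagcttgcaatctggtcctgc
Spdef (GRCm38.p6, minus strand, chr17:27728952-27729201): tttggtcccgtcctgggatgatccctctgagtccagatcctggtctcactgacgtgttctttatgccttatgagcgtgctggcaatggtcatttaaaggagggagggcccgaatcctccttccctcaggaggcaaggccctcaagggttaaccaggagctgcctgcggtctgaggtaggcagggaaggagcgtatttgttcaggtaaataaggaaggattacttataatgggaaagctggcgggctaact
Agr2 (GRCm38.p6, plus strand, chr12:35992675-35992924): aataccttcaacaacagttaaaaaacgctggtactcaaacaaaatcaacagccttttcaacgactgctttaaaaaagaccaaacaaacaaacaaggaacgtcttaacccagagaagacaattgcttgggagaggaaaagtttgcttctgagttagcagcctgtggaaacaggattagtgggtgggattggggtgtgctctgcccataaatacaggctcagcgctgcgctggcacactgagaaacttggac
Atoh1 (GRCm38.p6, plus strand, chr6:64728875-64729124): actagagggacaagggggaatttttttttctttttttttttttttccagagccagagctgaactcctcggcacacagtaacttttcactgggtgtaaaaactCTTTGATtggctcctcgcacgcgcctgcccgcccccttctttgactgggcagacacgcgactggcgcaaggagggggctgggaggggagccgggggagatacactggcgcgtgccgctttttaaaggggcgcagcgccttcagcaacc

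An E-box began 112 bases before the start of Muc2 and 208 bases before that of Fcgbp. A TCF/LEF match began 148 bases before the start of Atoh1. The promoters of Spdef, Agr2 and Gfi1 (with 2 start sites) held neither. In all 32851 promoters of the same length, 13% held the E-box and 3.21% the TCF/LEF core. The forkhead core TGTTTAC was in none of the members' promoters and in 3.17% of all. Such a match is a description of letters and was not tested as a binding site.

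In GRCm38 all 10 are protein-coding. The transcription factors lie at chr6:64729125-64731245 (Atoh1, plus strand), chr5:107716657-107726036 (Gfi1, minus) and chr17:27714352-27728955 (Spdef, minus). Muc2 (chr7:141690340-141754693, plus), Fcgbp (chr7:28071236-28120862, plus) and Zg16 (chr7:127050156-127087328, minus) share a chromosome. Tff3 lies at chr17:31125306-31129646 (minus), Agr2 at chr12:35992907-36004087 (plus), Clca1 at chr3:145003817-145032776 (minus) and Spink4 at chr4:40920052-40931395 (plus). Values are summed over all exons of a gene, untranslated regions included.

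Among WT libraries the members spanned a wide range of levels. Compared per length as mean FPKM, the order was Spink4 (1074 ± 119, SD, n = 5), Tff3 (743 ± 132), Fcgbp (152 ± 31.4), Agr2 (112 ± 12.1), Zg16 (46.0 ± 33.7), Muc2 (22.0 ± 4.63), Spdef (6.98 ± 1.05), Atoh1 (4.34 ± 0.690), Clca1 (4.07 ± 3.02) and Gfi1 (1.41 ± 0.340). The ranges of 5 pairs of neighbours overlapped. Within a library, the FPKM of Spink4 was above that of Tff3, and Fcgbp above Agr2, in 5 of 5 WT libraries. Zg16 was above Muc2 in 4 of 5, Clca1 above Gfi1 in 4 of 5 and Atoh1 above Clca1 in 3 of 5, so the order of these last pairs varied between libraries. The exon length of Muc2 is 7127 bases in the annotation used here, and the length behind the deposited FPKM is not given. Spink4, a small secreted protease inhibitor of goblet cells, and Tff3, the trefoil peptide of intestinal mucus, together made up most of the members' RNA per length. In counts, Tff3 was above Spink4 (7390 to 12265 against 4991 to 6759 in WT), although their exon lengths are similar (493 and 477 bases). Their order thus depended on the measure.

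Apc organoids held far less RNA of goblet cell genes than WT. In Apc against WT, 9 of 10 members were called lower and 0 higher, where a call needed a change of more than 1 on the log2 scale and an adjusted p below 0.05 (edgeR quasi-likelihood test, Benjamini-Hochberg adjustment over all 16749 genes tested). Of all genes tested, 14.1% were called lower and 12.2% higher. All 10 members were lower in every Apc library than in every WT library, against 25.0% of all genes. The median log2 fold change of the members was -3.19, beside 5.8e-04 for all genes tested (2364 lower and 2048 higher). On the FPKM scale, limma on log2(FPKM + 0.1) moved the median of all genes to 0.28, with 1731 lower and 2586 higher. In bulk RNA, fewer goblet cells and less RNA per goblet cell cannot be told apart. Markers of other differentiated cells moved with this result, and their part in it was not tested. Summed over 10 markers each, enterocyte markers had an FPKM of 70.5 to 107 in Apc and 8328 to 16353 in WT, and Paneth markers 670 to 1678 and 7250 to 12161. All 10 markers of both lists were above 3 counts in at least 1 Apc library.

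**Figure D1:**
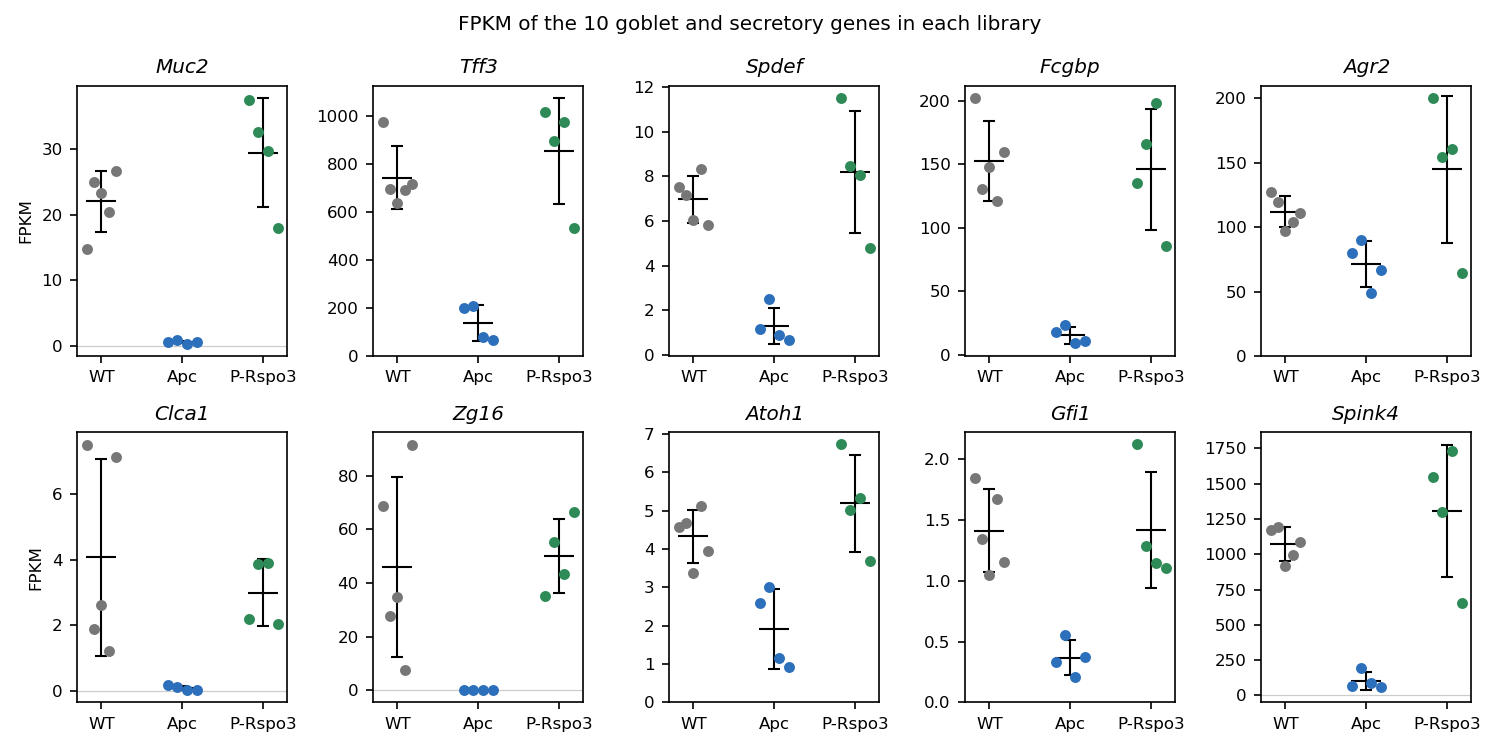
FPKM of each of the 10 genes (vertical axis, linear, 1 panel per gene) in the WT (n = 5), Apc (n = 4) and P-Rspo3 (n = 4) libraries; points are libraries, and bars give the mean ± SD. All 4 Apc points lie below all WT points in every panel, while WT and P-Rspo3 points overlap in every panel.

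Muc2 had the largest fall among members with at least 28 counts in every library. Its FPKM in WT was 14.8, 24.9, 23.3, 20.4 and 26.6 in lines 1, 2, 5, 6 and the naive culture. In Apc it was 0.592, 0.911, 0.392 and 0.677 in lines 1, 2, 5 and 6. Every Apc library was below 1 FPKM and every WT library above 14. The log2 fold change was -5.11 (SE 0.29, adjusted p = 1.6e-07, edgeR quasi-likelihood test), which is 34.5-fold lower (95% interval 22.3 to 53.4).

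Zg16, a lectin-like protein of goblet granules that binds bacterial cell walls, was close to the limit of detection in Apc. Its counts were 1280, 467, 585, 151 and 1612 in WT lines 1, 2, 5, 6 and naive. In Apc they were 2, 2, 1 and 3. The groups did not overlap, and WT itself varied widely, with line 6 low and line 1 and naive high. Summed over libraries, WT held 4095 counts and Apc 8, a ratio of 538 after normalization (95% interval 273 to 1246, exact, counting error only; called lower, adjusted p = 1.5e-05, edgeR).

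Clca1, a secreted metalloprotease that processes mucus, had a similar spread. In WT its FPKM was 7.52, 1.87, 2.62, 1.205 and 7.15 in lines 1, 2, 5, 6 and naive. In Apc it was 0.157, 0.113, 0.0301 and 0.0208, from 25, 14, 4 and 4 counts. The Apc libraries lay below all WT libraries, and within WT line 1 and naive again stood above the others. The log2 fold change was -5.83 with the largest error of the products other than Zg16 (SE 0.78, adjusted p = 8.4e-05, edgeR).

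Spink4 and Tff3, the most abundant members by FPKM, fell by smaller factors. Spink4 had an FPKM of 914 to 1194 in WT (median 1090) and 66.2, 193, 86.1 and 56.8 in Apc lines 1, 2, 5 and 6, and its log2 fold change was -3.74 (SE 0.31, adjusted p = 2.7e-06, edgeR). Tff3 had 637 to 974 in WT (median 697) and 199, 208, 78.6 and 67.2 in Apc, with a log2 fold change of -2.72 (SE 0.35, adjusted p = 6.6e-05, edgeR). Neither gene overlapped between the groups. Apc lines 1 and 2 kept more Tff3 than lines 5 and 6, and Apc line 2 kept the most Spink4. Fcgbp, a large mucus protein that is linked to Muc2 in the gel, had 121 to 202 FPKM in WT and 17.996, 23.5, 9.42 and 11.0 in Apc (log2 fold change -3.59, SE 0.33, adjusted p = 5.0e-06, edgeR).

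Agr2, a protein disulphide isomerase of the endoplasmic reticulum needed to fold Muc2, was the member that was not called. Its FPKM was 128, 119, 97.1, 104 and 111 in WT lines 1, 2, 5, 6 and naive. In Apc it was 79.9, 89.9, 48.5 and 67.0. The groups did not overlap, but the distance between the lowest WT and the highest Apc library was small. The log2 fold change of -0.93 (SE 0.16) had an adjusted p of 4.6e-04 (edgeR) and lay short of the fold threshold. An adjusted p under 0.05 alone was reached by 59.1% of all genes. Without Apc line 2 it was -1.06 and Agr2 was called lower.

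The transcription factors were lower than in WT, with Spdef the most reduced of them. Spdef had an FPKM of 7.55, 7.16, 6.03, 8.33 and 5.83 in WT lines 1, 2, 5, 6 and naive. In Apc it had 1.18, 2.49, 0.916 and 0.685. No library overlapped, and the log2 fold change was -2.79 (SE 0.32, adjusted p = 2.8e-05, edgeR). Gfi1 had 1.04 to 1.84 FPKM in WT (87 to 163 counts) and 0.213 to 0.555 in Apc (28 to 48 counts), with a log2 fold change of -2.08 (SE 0.24, adjusted p = 2.5e-05, edgeR). Up to 101 exon bases of Gfi1 are shared with the antisense gene A430072P03Rik, and reads there cannot be assigned with certainty because the strand setting of the counting is not given.

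Atoh1 fell least of the members that were called. Its FPKM was 4.58, 4.66, 3.36, 5.13 and 3.94 in WT lines 1, 2, 5, 6 and naive. In Apc it was 2.59, 3.01, 1.15 and 0.919. Lines 1 and 2 lay just under the lowest WT library, and lines 5 and 6 well under it. The log2 fold change was -1.44 (SE 0.33, adjusted p = 0.0031, edgeR), or 2.72-fold lower (95% interval 1.64 to 4.50).

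**Figure D2:**
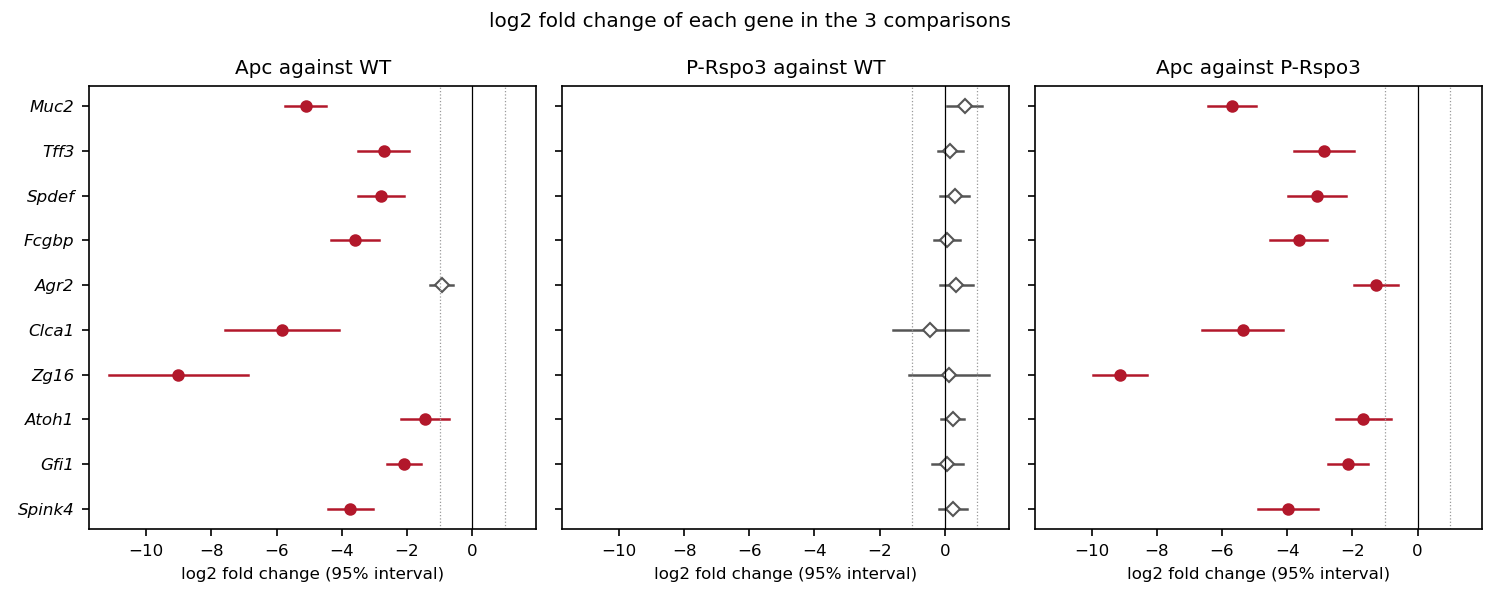
log2 fold change of each gene (points) with its 95% interval (lines) in Apc against WT, P-Rspo3 against WT and Apc against P-Rspo3; filled red circles were called, open diamonds were not, and dotted lines mark the fold threshold of 1 on the log2 scale. Circles run from -1.44 (Atoh1) to -5.83 (Clca1) in the first panel, apart from the fitted value of Zg16, which rests on 1 to 3 counts per Apc library, and every interval but that of Muc2 includes 0 in the second.

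The fall of Muc2 exceeded that of Atoh1. In Apc against WT, Muc2 had the largest fall of the members apart from Clca1 and Zg16. Atoh1 had the smallest fall of those called. The p-values of their ratio are therefore no independent support. The log2 ratio of Muc2 to Atoh1, from CPM (counts scaled to library size and normalized by TMM, the trimmed mean of M values) plus 1, was -0.21 ± 0.46 (SD, n = 4) in Apc, 3.16 ± 0.50 (n = 5) in WT and 3.53 ± 0.31 (n = 4) in P-Rspo3. Apc libraries ranged from -0.71 to 0.40 and WT libraries from 2.41 to 3.71. The difference of -3.37 between Apc and WT had a two-sided exact permutation p of 0.0159, the smallest that 4 against 5 libraries allow, and 0.0429 after adjustment over 3 comparisons. Apc and P-Rspo3 differed by -3.74 (exact permutation test, p = 0.0286, adjusted 0.0429), also the smallest possible. The difference of 0.37 between P-Rspo3 and WT had p = 0.254 (exact permutation test, n = 4 and 5).

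**Figure D3:**
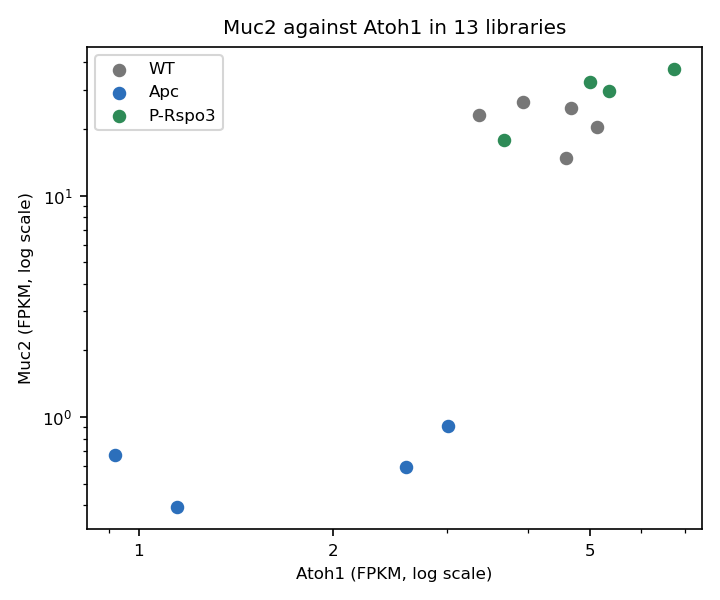
Muc2 FPKM (vertical, log scale) against Atoh1 FPKM (horizontal, log scale) in 13 libraries, 1 point each, coloured by group. The Apc libraries lie under 1 FPKM of Muc2 while their Atoh1 spans 0.919 to 3.01, next to the lowest WT value of 3.36.

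The size of the fall differed between lines. CPM of Muc2 was 22.3, 25.2, 61.8 and 36.4-fold higher in WT than in Apc in lines 1, 2, 5 and 6. For Atoh1 the folds were 2.11, 1.84, 3.61 and 6.44, and for Spdef 9.20, 3.69, 8.68 and 13.3. Agr2 had 1.89, 1.58, 2.52 and 1.83. Every member was lower in Apc in 4 of 4 lines, which follows from the lack of overlap between Apc and WT libraries. Line 2 gave the smallest fold of each gene drawn but Muc2, whose smallest was in line 1, and Apc line 2 was above the mean of its group for 10 of 10 members.

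**Figure D4:**
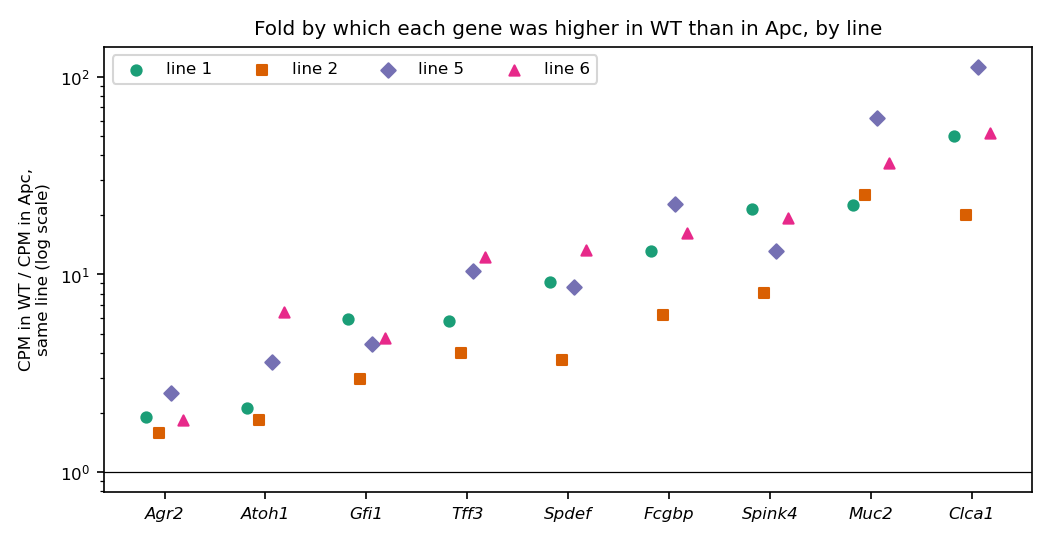
Ratio of TMM CPM in WT to TMM CPM in Apc of the same line (vertical, log scale) for 9 genes ordered by their median; marker shapes are lines 1, 2, 5 and 6, and the horizontal line marks a ratio of 1. All points lie above 1, from 1.58 (Agr2, line 2) to 112 (Clca1, line 5); Zg16 is left out because its Apc libraries hold 1 to 3 counts.

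The make-up of the programme differed as well as its level. The summed FPKM of the members was 1868 to 2582 in WT, 205 to 522 in Apc and 1438 to 3154 in P-Rspo3. Agr2 made up 4.94% to 5.40% of the sum in WT, 4.50% to 6.69% in P-Rspo3, and 21.7%, 17.2%, 21.5% and 32.7% in Apc lines 1, 2, 5 and 6. Spink4 made up 45.5% to 54.1% in WT and 17.97% to 38.2% in Apc. Muc2 made up 0.572% to 1.25% in WT and 0.161% to 0.331% in Apc.

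**Figure D5:**
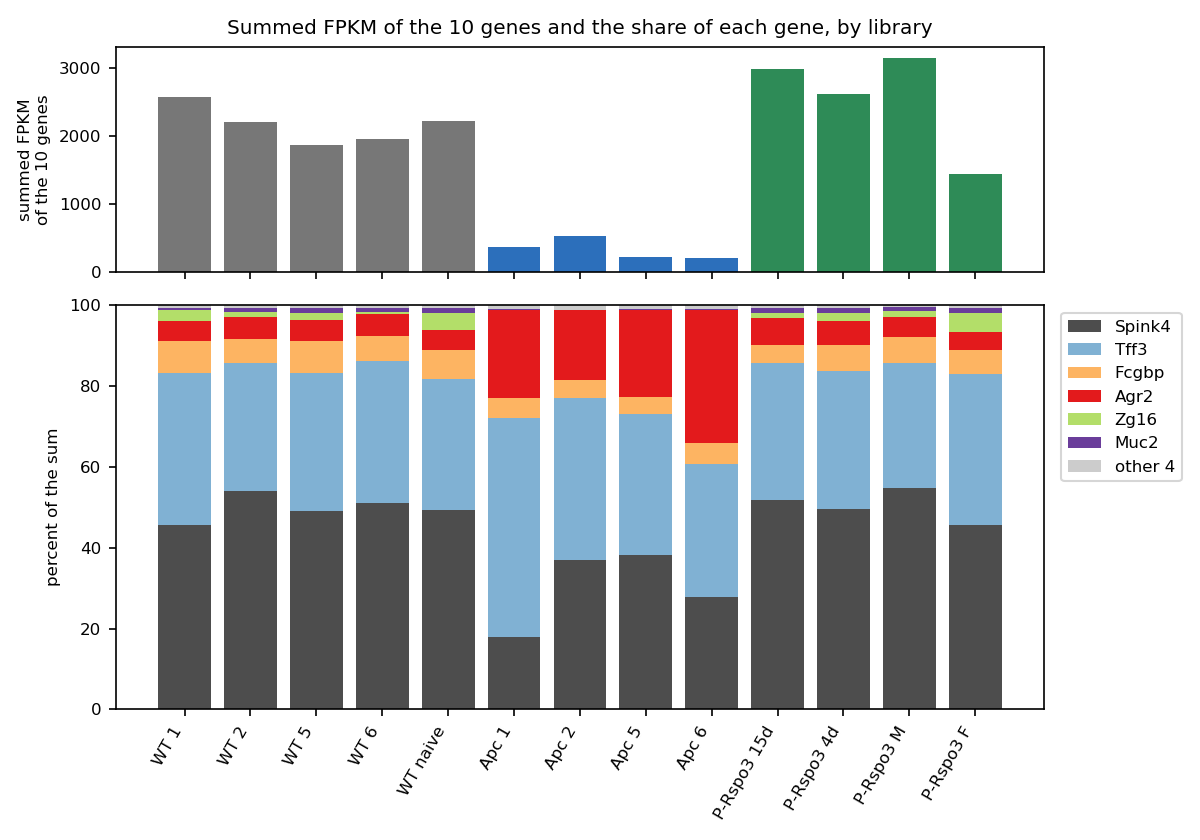
Upper panel, summed FPKM of the 10 genes in each library (bars, from 0, coloured by group); lower panel, the percent of that sum given by each gene, with Clca1, Spdef, Atoh1 and Gfi1 drawn together as the other 4. The red Agr2 segment is 17.2% to 32.7% of the sum in Apc and at most 6.69% elsewhere.

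None of the 10 genes passed the thresholds in P-Rspo3 organoids against all WT libraries, and by edgeR almost no gene tested did. In P-Rspo3 against WT, 0 of 10 members were called in either direction by edgeR, DESeq2 or limma, where edgeR called 0.00625% of all 15992 genes tested higher and 0% lower. Of these genes, DESeq2 called 55 higher and 173 lower, and limma 3 and 4 on log2(FPKM + 1) and 2 and 1 on log2(FPKM + 0.1). With WT of the flox lines only, edgeR called 166 of 15756 genes higher and 100 lower, and again 0 members. No member separated the groups, while 2.31% of all genes were higher and 2.59% lower in every P-Rspo3 library. At an unadjusted p under 0.05, 1 of 10 members passed in edgeR and in DESeq2 and 0 in limma, beside 13.5% of all genes in edgeR. The log2 fold changes ran from -0.45 (Clca1) to 0.60 (Muc2), with a median of 0.20, beside 0.0041 for all genes tested. Of the members, 9 of 10 were positive, but members varied together to different degrees and their signs are not independent. When single libraries were left out, Fcgbp, Zg16 and Gfi1 turned negative, while Muc2 (0.44 to 0.76), Agr2 (0.18 to 0.59), Spdef, Atoh1, Tff3 and Spink4 stayed positive and Clca1 negative.

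Muc2 was the gene that passed the unadjusted threshold. In P-Rspo3 its FPKM was 37.4, 32.5, 29.7 and 17.9 in 15d, 4d, M and F. The first 3 lay above all WT libraries and F fell between the lowest and highest WT libraries (14.8 and 26.6). The log2 fold change of 0.60 (95% interval 0.07 to 1.14) had an unadjusted p of 0.030 and an adjusted p of 0.31 (edgeR). The intervals of the other well-measured members were of similar width. For Atoh1 the log2 fold change was 0.24 (-0.12 to 0.60), for Spdef 0.30 (-0.15 to 0.76), for Tff3 0.17 (-0.20 to 0.54) and for Spink4 0.24 (-0.20 to 0.68). Changes of more than 1 on the log2 scale are thus outside the 95% interval for these 4. The intervals of Muc2 (0.07 to 1.14), Clca1 (-1.60 to 0.71) and Zg16 (-1.10 to 1.35) do include such changes.

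The P-Rspo3 libraries differed among themselves. Library F was below the mean of its group for 9 of 10 members, with Zg16 as the exception, at 66.4 FPKM against 35.02, 55.3 and 43.3 in 15d, 4d and M. Agr2 had 200.001, 154, 160 and 64.6 FPKM in 15d, 4d, M and F, so that F lay below every WT library and at the level of Apc. Spink4 had 1545, 1298, 1728 and 657, and Atoh1 6.74, 5.003, 5.34 and 3.67. With F left out, 0 members were called in P-Rspo3 against WT by edgeR.

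In Apc against P-Rspo3, where both groups were grown without RSPO1, 10 of 10 members were called lower and 0 higher (edgeR, 16456 genes tested, of which 13.3% were called lower and 13.4% higher). Libraries did not overlap for 9 of 10, against 26.4% of all genes, and Agr2 overlapped through P-Rspo3 F. This comparison and that with WT share the Apc libraries. Its groups differ in line of origin as well as in genotype, and these cannot be told apart. The median log2 fold change was -3.36. Muc2 had -5.70 (SE 0.33, adjusted p = 1.3e-06), Spdef -3.08 (SE 0.40, adjusted p = 1.4e-04), Atoh1 -1.66 (SE 0.37, adjusted p = 0.0039) and Agr2 -1.27 (SE 0.30, adjusted p = 0.0055; edgeR).

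On the deposited FPKM, the mean differences were tested gene by gene. All 10 members differed between Apc and WT (two-sided exact permutation test, p = 0.0159 each, 0.0451 after adjustment over 30 tests), and 9 of 10 between Apc and P-Rspo3 (exact permutation test, p = 0.0286, adjusted 0.0451), with Agr2 at p = 0.114 (adjusted 0.171). No member passed in P-Rspo3 against WT (exact permutation p of 0.143 or more). Without P-Rspo3 F, the FPKM of Muc2, Agr2 and Spink4 exceeded that of WT by 11.2, 59.6 and 450.2, each at an unadjusted exact permutation p of 0.0357, the smallest that 3 against 5 libraries allow. Over the 4 line pairs, an exact sign-flip test of Apc against WT gave p = 0.125 for each member, the smallest that 4 pairs allow.

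In the 9 libraries of WT and P-Rspo3, pairs of members varied together to different degrees. This is described as Pearson's r of log2(CPM + 1) over libraries that differ in line and medium. Spdef and Atoh1 had r = 0.946, Atoh1 and Gfi1 0.824, and Agr2 and Spink4 0.912. Agr2 also had 0.855 with Spdef, 0.780 with Atoh1 and 0.906 with Tff3, and Fcgbp had 0.616 with Clca1. The values of Muc2 were lower, from -0.257 with Clca1 to 0.538 with Agr2, with 0.209 for Tff3 and 0.182 for Fcgbp. Clca1 and Zg16 had r = 0.797 with each other and -0.170 and -0.372 with Spdef. Their coefficients of variation in WT were 74.2% and 73.2%, where those of the other 8 were 10.8% to 24.1%. WT line 6, with 7.44 FPKM of Zg16 and 1.205 of Clca1, was the lowest for both while it was the highest WT library for Spdef and Atoh1.

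Over all 13 libraries, the non-member genes with the pattern most like Muc2 were Ano7 (r = 0.995), Mycn (0.991), Lrp1 (0.990), Net1 (0.989) and Ghr (0.989), among 16481 genes. Those most like Atoh1 were Ern2 (0.973), Mars (0.969), Xpot (0.969), Hepacam2 (0.966) and Fsd1l (0.962). Tff3 ranked between the first of these with r = 0.971. The 13 points fall into the Apc libraries and the rest, so these values mostly describe the size of that gap.

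Most of the other goblet cell products listed fell with the members. Of 20 further goblet products tested in Apc against WT, 12 were called lower, 2 higher and 6 were not called (median log2 fold change -2.37). Among all genes tested, 14.1% were called lower and 12.2% higher. The list was chosen with earlier results of these data known. The called ones included Scin, an actin-severing protein, with 33580 counts over the WT libraries and 16 over the Apc libraries, a ratio of 2205 (95% interval 1357 to 3858, counting error only). Ccl6, a chemokine, had 25.1 ± 5.48 CPM (SD, n = 5) in WT and 0.347 ± 0.158 (n = 4) in Apc, with a log2 fold change of -6.19 (SE 0.31, adjusted p = 8.1e-08, edgeR). Guca2a, the precursor of guanylin, had 77.1 ± 11.9 CPM and 3.22 ± 2.06 (log2 fold change -4.60, SE 0.34, adjusted p = 1.2e-06, edgeR). Sytl4, a regulator of granule docking, was higher in Apc, with 12.7 ± 2.59 CPM against 3.20 ± 0.749 (log2 fold change 1.98, SE 0.20, adjusted p = 1.2e-05, edgeR). Several of these are not confined to goblet cells.

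Of 21 non-member regulators of the secretory lineage tested in Apc against WT, 5 were called higher, 2 lower and 14 were not called, where 12.2% of all genes were called higher and 14.1% lower. Their median log2 fold change was 0.46. Sox4 had 135 ± 24.6 CPM (SD, n = 4) in Apc and 39.8 ± 13.1 (n = 5) in WT (log2 fold change 1.75), the Notch ligand Jag2 104 ± 18.7 and 35.01 ± 5.17 (1.57), and the forkhead factor Foxa1 95.03 ± 8.69 and 33.6 ± 5.21 (1.49). Each was higher in every Apc library. The Notch ligand Dll1, a target of Atoh1, was lower at 23.8 ± 6.53 against 53.4 ± 9.67 CPM (log2 fold change -1.18, SE 0.19, adjusted p = 3.4e-04, edgeR), as was the enteroendocrine factor Nkx2-2 (1.55 ± 0.520 against 3.16 ± 0.660, log2 fold change -1.04). Neurog3, the factor that starts the enteroendocrine fate downstream of Atoh1, had 286 to 712 counts in Apc and 197 to 505 in WT, with a log2 fold change of 0.07, and was not called. Hes1, the Notch target that represses Atoh1, had a log2 fold change of -0.36 and was not called.

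Of 9 non-member mucins and trefoil genes tested in Apc against WT, 3 were called higher and 2 lower (12.2% and 14.1% of all genes), with a median log2 fold change of -0.15. In a list this short, such counts are not set apart from the background. Muc13, a membrane mucin, had 783 ± 161 CPM in WT (SD, n = 5) and 198 ± 41.9 in Apc (n = 4), a log2 fold change of -1.99 (SE 0.18, adjusted p = 4.4e-06, edgeR). Muc3 had 79.6 ± 65.8 and 1.25 ± 0.320 (log2 fold change -5.99), a membrane mucin whose reads may be split with its close copy Muc3a, which was not called. Muc5ac, the secreted mucin of the gastric surface, had 200, 43, 75 and 207 counts in Apc lines 1, 2, 5 and 6 and 0 in all WT and P-Rspo3 libraries. At 3 counts per library as the limit that a count of 0 allows, it was at least 29.2-fold higher in Apc. Muc6, the gland mucin of the stomach, had 8.04 ± 3.44 CPM in Apc and 0.218 ± 0.122 in WT (log2 fold change 5.17), and its partner Tff2 2.82 ± 2.31 and 0.507 ± 0.231 (log2 fold change 2.44, SE 0.58, adjusted p = 0.0039, edgeR). The gastric markers Gkn1, Gkn2 and Tff1 had at most 3 counts in every Apc library. Gkn3 was lower in Apc, at a mean FPKM of 2.42 against 6.56 (log2 fold change -1.67, adjusted p = 0.0014, edgeR). Summed over 7 gastric markers, FPKM overlapped between the groups (6.20 to 13.4 in Apc, 4.42 to 11.1 in WT).

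Of 24 enzymes and carriers that build mucin sugars, 6 were called lower and 2 higher in Apc against WT, beside 14.1% and 12.2% of all genes, and the median log2 fold change was -0.21. Fut2, the fucosyltransferase of secreted blood group antigens, had 35.6 ± 7.73 CPM in Apc (SD, n = 4) and 1.96 ± 0.792 in WT (n = 5; log2 fold change 4.17, SE 0.28, adjusted p = 5.3e-07, edgeR), and the core branching enzyme Gcnt1 10.3 ± 3.98 and 0.515 ± 0.280 (4.32). The sialyltransferase St3gal4 had 9.78 ± 2.97 and 550 ± 180 (log2 fold change -5.82), Gcnt4 3.41 ± 0.951 and 97.9 ± 9.03 (-4.85), and Galnt5, which starts mucin glycosylation, 0.356 ± 0.0705 and 3.28 ± 0.891 (-3.20). Of 22 genes of folding and stress in the endoplasmic reticulum, Agr2 included, 3 were called lower and 0 higher in Apc against WT, a share near the 14.1% of all genes called lower. At an unadjusted p under 0.05 in edgeR, 12 of the 22 passed, as did 10513 of all 16749 genes. The called genes were Ern2, a goblet cell stress sensor (log2 fold change -1.61, SE 0.30, adjusted p = 7.5e-04), Creb3l1 (-1.35, SE 0.15, adjusted p = 1.7e-05) and Xbp1, a factor of secretory cell expansion (-1.18, SE 0.10, adjusted p = 2.6e-06; edgeR). The general chaperones were not called.

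None of these 5 lists had a gene called in P-Rspo3 against all WT libraries by edgeR, but with WT of the flox lines only it called Rep15 of the goblet products and St6galnac1 of the glycosylation genes. At an unadjusted p under 0.05, 6 of 27 goblet products, 2 of 24 regulators, 2 of 9 mucins and trefoil genes, 11 of 24 glycosylation genes and 1 of 22 folding genes passed, beside the 13.5% of all genes. DESeq2 called Agr3 of the goblet products, and none of the other lists.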

How the data were processed

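Polyadenylated RNA of 15 organoid cultures was sequenced. The deposited tables hold raw counts per gene made by the authors with HTSeq 0.6.0 and FPKM made by them with Cufflinks 2.2.1, after alignment by STAR to GRCm38. The annotation release and strand setting are not given in the sources used here. Of 43629 genes, 42462 were paired with a symbol, and no row lacks a gene name. Groups were taken from the labels, and 2 libraries whose title and genotype conflict entered no group.

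The deposited counts were tested with edgeR 4.0.16 (R 4.3.3, default settings of glmQLFit and glmQLFTest in their earlier form, TMM scaling) in separate fits of each pair of groups. A gene was tested if its FPKM reached 0.1 in a number of libraries equal to the size of the smaller group. A call needed an adjusted p (Benjamini-Hochberg) below 0.05 and a change over 1 on the log2 scale in either direction. FPKM and the Muc2 to Atoh1 ratio were compared by two-sided exact permutation tests (scipy 1.17.1). At most 3 counts was read as not detectable, and intervals on counts (95%, exact) cover counting error only. Scripts were tested on simulated data.

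The members, the 5 wider lists and the markers were chosen with earlier results of these data known. All members were named, and of each list at most 3 non-members called higher and 3 called lower with the largest change, a mean CPM of at least 1 and no overlap of libraries, besides the 5 genes most like Muc2 and Atoh1. Neurog3, Hes1, Muc3a, Agr3, Rep15, St6galnac1 and the cell type markers were named after their values were seen. Apc and WT libraries of one number come from the same line by their titles (A1 and A1_plus, for example). Their deviations from the means of their groups had correlations of 0.0032 to 0.183 over 4 pairs, and the line was used as a block in an alternative. Replicates all differed by more than sampling noise (chi-square per gene of 22.4 or more). Alternatives were DESeq2 1.42.0 and its size factors, limma 3.58.1 on log2(FPKM + 1) and log2(FPKM + 0.1), other filters, all 3 groups in 1 fit, the newer edgeR form, single libraries left out, WT of the flox lines only, and the conflicting libraries by their genotype field. Promoters came from the RefSeq table of GRCm38.p6.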

Additional observations from a re-analysis of the deposited data

Results flagged for a closer look

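Tff3 in WT line 1 had an FPKM of 974, where the other 4 WT libraries had 637 to 718. It was the only library standing apart from the rest of its group (Dixon's test) among 30 sets of values, 10 genes in 3 groups, and chance picks about 1 in 20 such sets. Without WT line 1, Tff3 was still called lower in Apc.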

How the results depend on the processing

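The counts of members called lower (9 in Apc against WT, 10 in Apc against P-Rspo3) and called in P-Rspo3 against WT (0) stayed within 1.5 times under all alternatives run, including 9 in Apc against WT with the line as a replicate block. Leaving out single libraries gave 9 to 10, 10 and 0. With limma on log2(FPKM + 1), Atoh1 (-0.93) and Gfi1 (-0.81) in Apc against WT, and Agr2 (-0.94) and Gfi1 (-0.81) in Apc against P-Rspo3, lost the call, as did Agr2 (-0.94) with log2(FPKM + 0.1). The FPKM scale moved the median of all genes in Apc against WT to 0.28 with log2(FPKM + 0.1) and 0.17 with log2(FPKM + 1). It gave 2586 genes higher and 1731 lower with the former, where edgeR on counts gave 2048 and 2364, and in Apc against P-Rspo3 2608 and 1653 in place of 2209 and 2183. Members fell by more than that shift. The line number as a replicate block (4 pairs, Apc against WT) gave a log2 fold change of -5.06 for Muc2 and -0.96 for Agr2 and changed no call of edgeR. No paired analysis was possible for the comparisons with P-Rspo3 because these groups share no replicate number.

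The counts over all genes moved by more than 1.5 times in some alternatives. In Apc against WT, 1184 genes were called higher with an FPKM of at least 1, and 1132 lower with limma on log2(FPKM + 1). In Apc against P-Rspo3 these were 1264 higher with the FPKM filter, and 1430 higher and 1124 lower with limma. In P-Rspo3 against WT, the 1 gene higher and 0 lower became 11 and 63 with all groups in 1 fit, 55 and 173 with DESeq2, 2 and 1 with limma on log2(FPKM + 0.1), 3 and 4 with log2(FPKM + 1), 2 and 4 with the newer edgeR form, 2 and 11 without the filter, and 166 and 100 with WT of the flox lines only (the same libraries as without the naive WT). Leaving out single libraries gave 1 to 166 higher and 0 to 100 lower there, with 3 and 7 without P-Rspo3 M, 9 lower without WT line 1 and 1 lower without P-Rspo3 4d. The range was 1960 to 2149 higher and 2183 to 2441 lower in Apc against WT, and 2130 to 2459 higher and 2111 to 2290 lower in Apc against P-Rspo3.

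The Muc2 to Atoh1 difference was -3.58 to -3.21 in Apc against WT without single libraries, 0.18 to 0.51 in P-Rspo3 against WT and -3.95 to -3.58 in Apc against P-Rspo3, where 3 against 4 libraries cannot reach a p below 0.0571. In P-Rspo3 against WT the sign of uncalled members turned. Leaving out single libraries gave log2 fold changes of -0.043 to 0.23 for Fcgbp (negative without 4d and without M, at -0.0100), -0.15 to 0.55 for Zg16 (negative without F, at -0.078, WT 2, at -0.017, and WT 6) and -0.13 to 0.17 for Gfi1 (negative without 15d and WT 5, at -0.0052). With limma, Fcgbp had -0.10 in both forms and Gfi1 -0.015 and -0.0062, and with the conflicting libraries placed by genotype Zg16 had -0.032. On the FPKM scale the difference was -23.4 to 13.9 for Fcgbp (positive without F and, at 6.27, without WT 1, and 52.3 as CPM), -5.64 to 15.4 for Zg16 (negative without F, at -1.46, WT 2, at -0.62, and WT 6) and -0.233 to 0.111 for Gfi1 (negative without 15d, WT 2, at -0.0140, WT 5, at -0.0894, and naive, at -0.0624). The single-gene FPKM tests of Apc against P-Rspo3 cannot reach 0.05 with 3 libraries against 4. The cause was not tested. Counts of 1 to 3 per library limit Zg16 in Apc.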

Other observations

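Genes of other secretory cells moved unequally in Apc. Summed FPKM of 10 enteroendocrine markers was 24.2 to 48.7 in Apc and 164 to 285 in WT. Gip (0.399 against 81.8 mean FPKM), Cck (0.472 against 23.4), Gcg, Tac1, Chga and Chgb were called lower, beside 14.1% of all genes (edgeR). The hormone gene Sct (9.39 against 13.1), Neurod1, Pax4 and Neurog3 (9.39 against 7.44) were not called. Of the Paneth markers, Mmp7 was higher in Apc (mean FPKM 164 against 40.3, log2 fold change 1.74), with Lyz1 lower (399 against 1411, log2 fold change -2.10). Summed stem cell markers overlapped between the groups (878 to 1028 in Apc, 795 to 1688 in WT), but single markers did not move alike. Olfm4, the largest part of the sum in WT, had a mean FPKM of 0.963 in Apc against 703. Lgr5 (99.6 against 29.9), Ascl2, Smoc2, Axin2, Rnf43 and Tnfrsf19 were called higher in Apc, with log2 fold changes of 1.21 to 4.86 (edgeR). Cdca7, Msi1 and Slc12a2 were not called. Of all genes tested, 12.2% were called higher.

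St6galnac1, a sialyltransferase of goblet cell mucin, had 622, 254, 124 and 340 counts in P-Rspo3 15d, 4d, M and F and 166 in the naive WT, but 0 or 1 in WT and Apc lines 1, 2, 5 and 6 and in both libraries of no group. In P-Rspo3 against WT it had an unadjusted p of 0.0375 and an adjusted p of 0.332 (edgeR). It was called with WT of the flox lines only, as was 1 goblet product, Rep15. The gene was chosen after its values were seen, and the cause was not tested.

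The 2 libraries in no group are given as single values. LIPO (ENR medium) had an FPKM of 26.9 for Muc2, 3.91 for Atoh1, 110 for Agr2, 108 for Zg16 and 10.9 for Clca1, with 0 counts of Rspo3 and 0 of St6galnac1. NAIVE_F (EN medium) had 36.1, 3.51, 172, 77.9 and 3.81 for the same genes, with 729 counts of Rspo3 and 1 of St6galnac1.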
